A study of Mus musculus with 115 samples.

Results

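Tight junctions, adherens junctions and desmosomes hold epithelial cells together, and the transcripts of their proteins were followed in inguinal adipose tissue (called fat here) and liver of gonadectomised mice. Members were all probes whose symbol begins with Cldn, Dsg, Dsc, Pkp or Tjp followed by a number, or is Ocln, Cdh1, Dsp, Jup, F11r or Cgn. They came to 39 genes among the 18120 gene symbols of each tissue's table, read by 56 of its 25697 probes. No probe carried the symbol Dsp or Cgn. A probe listed under the older clone name 5730453H04Rik belongs to Dsp in RefSeq; it was picked out after its values were seen and is given apart from the members.

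The study set sex chromosomes, gonad type and sex hormones against each other as sources of sex differences in these tissues. Its mice were of 4 genotypes on a C57BL/6J background, in which Sry is missing from the Y chromosome (written Y-) and, where present, sits on an autosome as a transgene. XX and XY- mice had ovaries; XXSry and XY-Sry mice carried the transgene and had testes. All mice lost their gonads at 75 days and then carried for 3 weeks a capsule that was blank (B), held testosterone (T, 5 mM) or held estradiol (E, 50 µg). A comparison of gonad types, Sry against no Sry, is therefore made in mice that had lost their gonads, and it cannot tell the transgene apart from the former testis. The hormone comparisons share the blank arrays. Illumina BeadChips were hybridised with 60 liver RNAs, 5 in each of the 12 groups, and 55 fat RNAs, with 3 arrays in XX B, 4 each in XY-Sry B, XX T and XXSry E, and 5 in the other groups. Without Sry there were 27 fat arrays (8 B, 9 T and 10 E), and with Sry 28 (9 B, 10 T and 9 E). The labels do not say that arrays of a group came from separate animals, so a p-value measures the spread between these arrays.

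Claudins are the membrane proteins of the tight junction that seal the space between neighbouring cells and decide which ions pass. Occludin (Ocln) and the adhesion molecule F11r lie beside them, and scaffold proteins such as Tjp1 and Tjp3 tie them to actin. E-cadherin (Cdh1) forms the adherens junction. Desmogleins and desmocollins (Dsg, Dsc) are the cadherins of the desmosome, where plakophilins (Pkp), plakoglobin (Jup) and desmoplakin (Dsp) link them to keratin filaments. Adipocytes are not epithelial cells, but the inguinal fat pad of the mouse encloses a mammary gland, whose ducts hold an inner luminal and an outer basal epithelial layer. Hepatocytes are epithelial cells and seal bile canaliculi with tight junctions.

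The median raw signal of an array lay between 130 and 230 in fat and between 124 and 159 in liver. Between 40.3% and 49.0% of probes were detected (detection p under 0.01) on a fat array and between 31.8% and 41.0% on a liver array. All 5 adipocyte marker probes were detected on every fat array, and all 7 hepatocyte marker probes on every liver array. Markers of other tissues varied widely in fat. The mean log2 signal of 5 skeletal muscle markers ran from 5.88 to 14.41 over the fat arrays, and that of the hepatocyte markers from 4.79 to 12.98. The highest of these hepatocyte values belonged to the fat array XY-Sry T replicate 1; it lay within the range of the liver arrays (12.61 to 13.38), while the next fat array stood at 10.06. The liver array XY-Sry T replicate 5 goes against its label: its Eif2s3y signal of 4.53 lay among the XX arrays (4.32 to 4.96) and below all other XY arrays (6.76 to 8.14). In the liver array XY- E replicate 5, the 50 probes most raised by testosterone stood 1.92 above blank on the log2 scale, among the T arrays (1.71 to 2.62) and above all other E arrays (-0.48 to 1.15). For the fat array XX E replicate 1 the label fields name both hormones. It was kept as estradiol, and its 50 probes most raised by estradiol stood 2.99 above blank, among the E arrays (1.78 to 3.32) and above every T array (highest 1.42). These arrays stay in the values below, and results that move without them are given with both values.

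In fat, 32 of the 56 member probes, of 24 genes, were detected on at least 3 arrays and were tested; in liver 22 probes of 17 genes were detected on at least 5. In fat 21 probes, and in liver 26, were detected on no array. Among the probes detected nowhere in fat were those of the desmosomal cadherins of stratified skin, Dsg1b, Dsg1c and Dsg3, and of Dsc1. The probe of Dsc2 was detected on 0 of 55 fat arrays, and Ocln on 2. Levels below are log2 of background-corrected and normalised signal, and differences are on the same scale with their SE. A difference counts as called where limma's p, adjusted by Benjamini-Hochberg across every probe tested in that tissue, is under 0.05. An offset of 16 on each signal makes the differences of dim probes smaller than they were.

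The type of gonad divided the junction transcripts of fat. Of the 32 member probes tested, 15 were called between mice with and without Sry, against 7.34% of all tested probes. Lower with Sry were 13 probes of 10 genes (Cldn3, Cldn4, Cldn6, Cldn10, Cldn23, Cdh1, F11r, Pkp1, Pkp3 and Tjp3), where 4.71% of all tested probes were lower; the 2 probes of 1 gene, Cldn15, were higher. The median difference over the tested members was -0.32, and over all tested probes 0.03. A probe that passed the detection filter only through the ovary-bearing genotypes had to differ, and those of Cldn6 and Cldn23 passed in this way. The count was therefore also taken over all 56 probes with no filter: 16 were called, 14 lower and 2 higher, against 3.98% of all 25697 probes. In bulk RNA, fewer cells of a type and less RNA per cell cannot be told apart, and this holds for every level given here.

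The claudins Cldn4 and Cldn3, barrier-forming claudins of simple and glandular epithelia, showed the largest differences among the members. Cldn4 in fat of mice without Sry ran from 8.19 (median 9.37) to 10.81 under the blank capsule, from 9.23 (10.25) to 11.49 under testosterone and from 10.36 (10.81) to 11.77 under estradiol. With Sry it ran from 5.32 (6.07) to 8.09, from 4.67 (6.08) to 8.28 and from 4.87 (6.19) to 8.50. Under each capsule every array with Sry lay below every array without, and with Sry the probe was detected on 15 of 28 arrays against 27 of 27. The difference was -3.91 ± 0.27 (a 15-fold lower signal with Sry; limma adjusted p = 4.74e-16). Cldn3 without Sry had medians of 8.25, 9.20 and 9.0 under B, T and E, with a lowest array of 7.64 and a highest of 10.03. With Sry its medians were 5.01, 5.10 and 5.26, and it was detected on 7 of 28 arrays. The groups did not overlap under B and E; under T a single array with Sry, at 9.55, reached into the range of the others (8.22 to 9.91). That array is XY-Sry T replicate 1, whose hepatocyte markers stood at liver level, and Cldn3 is bright in liver (8.89 to 10.45). Any part of liver RNA in its Cldn3 value was not tested. The difference was -3.29 ± 0.27 (9.82-fold, with most arrays with Sry at background; limma adjusted p = 5.43e-14), and -3.45 without that array (limma adjusted p = 2.09e-17). Without background correction the differences were smaller, -2.57 for Cldn4 and -1.70 for Cldn3, and both stayed called.

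**Figure D1:**
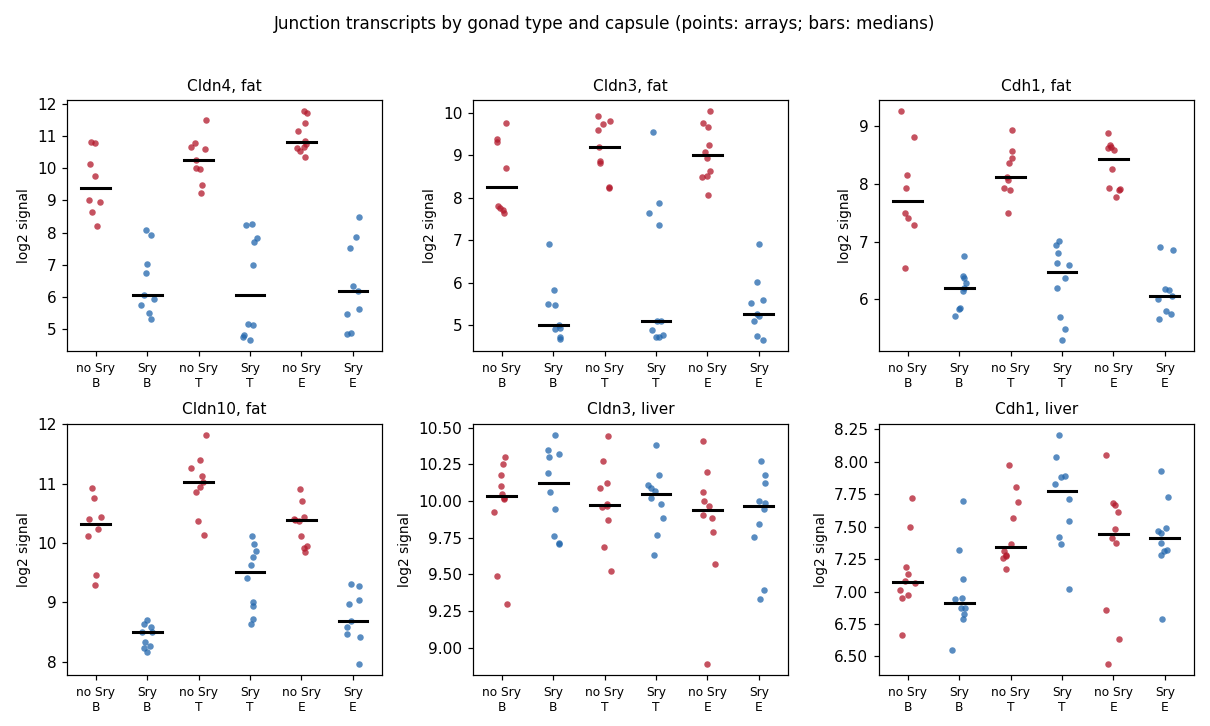
Log2 signal (vertical axes, each panel with its own range) of Cldn4, Cldn3, Cdh1 and Cldn10 in fat and of Cldn3 and Cdh1 in liver, by gonad type and capsule; each point is an array (red without Sry, blue with Sry) and each bar the median of its group. In fat the blue points lie below the red ones under every capsule for Cldn4 and Cldn10, while in liver the colours lie at the same height.

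Cldn3 and Cldn4 are neighbours in the genome, on opposite strands with start sites 39.3 kb apart in RefSeq's GRCm38.p6 annotation, and their start-site windows are shown because the pair has the 2 largest differences and moved together from array to array. Each window holds 250 bases before and 50 after the start, at chr5:134946885-134947184 (minus strand) for Cldn4 and chr5:134985964-134986263 (plus strand) for Cldn3. In capitals are the E-box CACCTG, the sequence read by repressors of the Snail and Zeb families, and the GC box GGGCGG of Sp1-type factors, each on either strand.
Cldn4: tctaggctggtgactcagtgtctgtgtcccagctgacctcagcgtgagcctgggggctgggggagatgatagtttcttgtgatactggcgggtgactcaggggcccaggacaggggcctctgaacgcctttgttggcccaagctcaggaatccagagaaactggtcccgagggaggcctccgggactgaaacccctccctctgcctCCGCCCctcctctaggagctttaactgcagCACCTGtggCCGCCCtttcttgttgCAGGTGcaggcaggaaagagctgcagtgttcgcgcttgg
Cldn3: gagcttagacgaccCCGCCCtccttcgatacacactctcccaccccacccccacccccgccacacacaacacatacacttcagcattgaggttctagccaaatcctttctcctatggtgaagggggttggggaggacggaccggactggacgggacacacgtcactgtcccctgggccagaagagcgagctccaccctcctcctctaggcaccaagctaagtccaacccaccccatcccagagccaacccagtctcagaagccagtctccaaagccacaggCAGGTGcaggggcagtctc
The Cldn4 window holds the E-box 2 times and the GC box 2 times, and the Cldn3 window holds each of them 1 time. Of the 32851 windows in the RefSeq table, 20.2% hold this E-box and 35.7% this GC box. Neither window holds AACCNGTT, the motif of grainyhead-like factors, which 2.09% of all windows hold. These are matches of letters, not binding sites. Among the members 21 genes had a window; none was found for Cdh1, Pkp1, Pkp3 and Cldn23.

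E-cadherin followed the same order. Cdh1 without Sry had medians of 7.71, 8.13 and 8.43 under B, T and E, with all arrays between 6.54 and 9.26. With Sry the medians were 6.20, 6.48 and 6.07 and no array passed 7.01. The ranges were apart under T and E, and under B 8 of the 9 arrays with Sry lay below all arrays without. The difference was -1.96 ± 0.14 (3.89-fold; limma adjusted p = 8.91e-16); it was -1.97 without XY-Sry T replicate 1, and -1.0 and still called without background correction.

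Cldn10, an ion-selective claudin of secretory and renal epithelia, was well detected in fat of both gonad types and still fell into separate ranges. Its brightest probe ran without Sry from 9.29 (median 10.32) to 10.92 under B, from 10.14 (11.03) to 11.82 under T and from 9.85 (10.38) to 10.91 under E. With Sry it ran from 8.15 (8.49) to 8.69, from 8.63 (9.52) to 10.11 and from 7.97 (8.69) to 9.32. Under each capsule all arrays with Sry lay below all without. The difference was -1.66 ± 0.12 (3.17-fold; limma adjusted p = 5.57e-16), and the other two tested probes of the gene gave -1.72 ± 0.12 and -1.89 ± 0.15. The remaining Cldn10 probe was detected on no fat array.

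The remaining tight-junction members that were lower with Sry were dimmer. Tjp3, the scaffold protein most restricted to epithelia of its family, was detected on 19 of 27 arrays without Sry and on 6 of 28 with it by its brighter probe, and its probes differed by -0.87 ± 0.16 and -1.02 ± 0.17 (limma adjusted p = 7.36e-05 and 8.23e-06). Its arrays overlapped between gonad types under every capsule. Cldn23 was detected on 8 of 27 arrays without Sry and on 0 of 28 with it; the fit gave -0.77 ± 0.12 (limma adjusted p = 1.50e-06), but its mean of 5.43 without Sry lay below the floor of 6.04 set by the dimmest detected probes, so no fold is given. Cldn6 was detected on 3 of 27 and 0 of 28 arrays, with -0.43 ± 0.11 (limma adjusted p = 0.00581). Its mean of 5.35 without Sry also lay below that floor, so no fold is given. The probes of Cldn23 and Cldn6 passed the detection filter only through arrays without Sry, so their calls cannot stand as support for a difference. F11r, the junctional adhesion molecule that also sits on blood and endothelial cells, was detected on every fat array, and its difference was small: -0.41 ± 0.08 (1.33-fold; limma adjusted p = 0.000185). Without background correction Tjp3 gave -0.32, Cldn23 -0.30 and Cldn6 -0.15, each still called.

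Among the desmosomal members, the plakophilins Pkp1 and Pkp3 were lower with Sry. Pkp1, a plakophilin of stratified and glandular epithelia, ran without Sry from 6.15 (median 6.84) to 7.81 under B, from 5.09 (6.96) to 8.02 under T and from 7.22 (7.67) to 8.19 under E. With Sry it ran from 4.96 (5.37) to 6.24, from 4.89 (6.00) to 6.84 and from 5.01 (5.27) to 5.78. The ranges were apart under E alone, where the probe was detected on 10 of 10 arrays without Sry and 0 of 9 with it, which makes the signal at least 3.34-fold higher without Sry, taken against the mean over those arrays of the lowest signal among detected probes on each. Over all capsules the difference was -1.66 ± 0.14 (limma adjusted p = 6.34e-13). Pkp3 differed by -0.95 ± 0.21 (1.94-fold; limma adjusted p = 0.00134) with overlapping ranges, from 5.49 (median 7.04 over the 27 arrays) to 8.03 without Sry and from 4.68 (5.60 over 28) to 7.27 with it. Without background correction Pkp1 gave -0.68 and Pkp3 -0.38, both still called.

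The desmosomal cadherins were not called over all capsules. The 3 probes of Dsg2 gave differences of 0.11, -0.34 and -0.34 with limma adjusted p of 0.631, 0.0885 and 0.105, and Dsc3 gave -0.04 ± 0.15. The brightest Dsg2 probe was called under E (-0.79 ± 0.21; limma adjusted p = 0.0137), where the others gave -0.67 and -0.06, not called, and over all capsules with array weights (-0.39; limma adjusted p = 0.0118) or with marker scores as covariates (-0.39; limma adjusted p = 0.0191). Its difference was negative on 7 of the 8 slides. Plakoglobin (Jup), which adherens junctions and desmosomes share, gave -0.31 ± 0.11 (limma adjusted p = 0.0846). The Dsp probe, listed as 5730453H04Rik and no member by its symbol, had medians of 6.05, 6.36 and 6.87 without Sry and 4.76, 4.67 and 4.65 with it under B, T and E. Its difference was -1.61 ± 0.14 (limma adjusted p = 5.57e-13), with detection on 19 of 27 arrays against 1 of 28. The Dsp probe thus passed the detection filter only through arrays without Sry, so its call cannot stand as support for a difference. Pkp2, the plakophilin of heart and simple epithelia, was bright in both gonad types, and its 3 probes gave 0.26 to 0.31 with limma adjusted p from 0.323 to 0.456.

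Cldn15, a cation channel-forming claudin best known from the intestine, went the other way. It was detected on every fat array by 2 probes, which were 0.50 ± 0.15 and 0.41 ± 0.12 higher with Sry (1.42- and 1.33-fold; limma adjusted p = 0.0208 and 0.0278). The arrays overlapped under every capsule, the difference was positive on 7 of the 8 slides, and arrays centred on their medians in place of quantile normalisation gave a limma adjusted p of 0.0957 for the brighter probe. That probe was also not called without XY-Sry B replicate 2 or without XX B replicate 2.

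**Figure D2:**
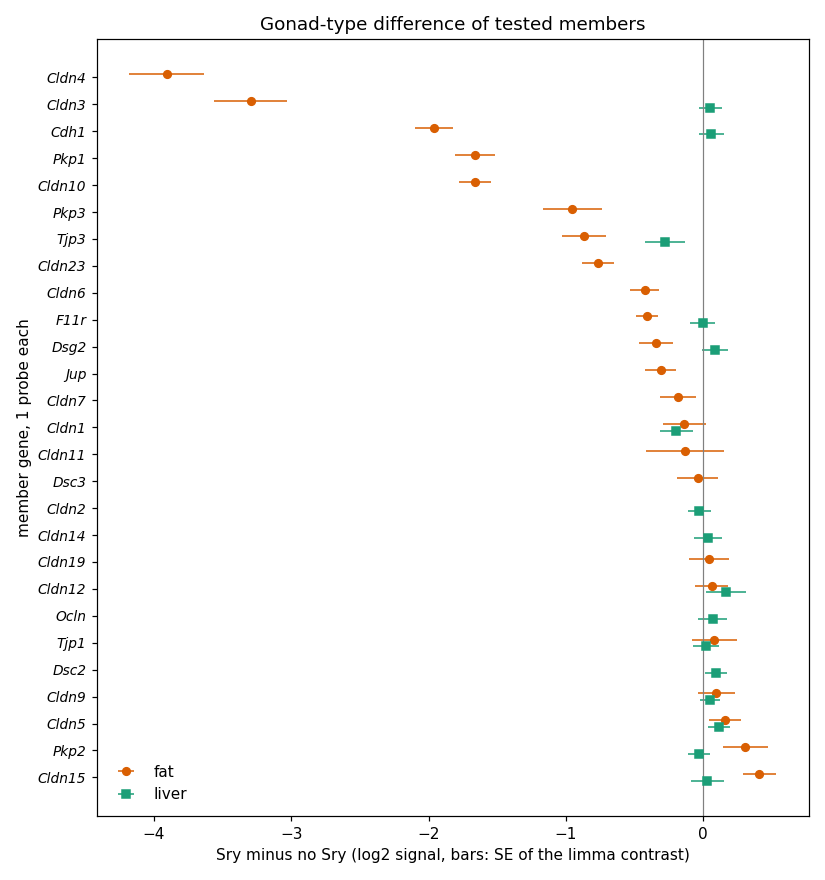
Difference between mice with and without Sry (horizontal axis, log2 signal) for tested member genes in fat (orange circles) and liver (green squares), 1 probe a gene, with bars for the SE of the limma contrast. The fat values reach from -3.91 for Cldn4 to 0.41 for Cldn15, and the liver values lie between -0.28 and 0.17.

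The differences of Cldn4, Cldn3, Cdh1, Cldn10, Pkp1, Pkp3 and Tjp3 had the same sign on every slide, while those of smaller size did not. Under B 7 member probes were called, all lower with Sry, against 1.8% of tested probes; under T 13 were called, 11 lower and 2 higher, against 3.42%; under E 12 were called, all lower, against 4.4%. Cldn4 differed by -3.21 ± 0.49 under B, -3.92 ± 0.46 under T and -4.60 ± 0.46 under E (limma adjusted p from 1.05e-10 to 8.75e-06), and Pkp1 by -1.53 ± 0.26, -1.11 ± 0.24 and -2.34 ± 0.24. The differences between capsules were not called: of the gonad by testosterone terms 0 of 32 members passed in limma (5 at an unadjusted p under 0.05; 0.0137% of all probes called), and of the gonad by estradiol terms 0 (6 at an unadjusted p under 0.05; 0.813% of all probes). Arrays were spread over 8 slides per tissue and gonad types were balanced on them. On each of the 8 slides the difference was negative for Cldn4 (-4.69 to -2.26), Cldn3 (-4.04 to -1.95), Cdh1 (-2.31 to -0.88), Cldn10, Pkp1, Pkp3 and Tjp3. F11r was negative on 6 of 8 slides (-0.65 to 0.53), and Cldn23 and Cldn6 on 7 of 8 (up to 0.06 and 1.07). The sex chromosomes gave no called member in fat in limma (0 of 32, with 6 at an unadjusted p under 0.05, against 0.137% of all probes), nor in liver (0 of 22, with 0 at that p, against 0.186%).

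Markers of mammary epithelium moved with these transcripts. All 6 tested luminal marker probes (Krt7, Krt8, Krt18, Krt19, Elf5 and Csn3) were lower with Sry, by -4.18 ± 0.37 for the milk protein gene Csn3 to -2.20 ± 0.16 for Elf5, a transcription factor of the luminal layer. The milk protein genes Wap and Lalba were detected on no fat array. The mean log2 signal of the luminal list ran from 8.27 (median 10.13) to 11.17 over the arrays without Sry and from 4.94 (6.24) to 8.70 over those with it. All 8 basal marker probes, of Krt5, Krt14, Krt17, Trp63 and Acta2, were lower as well (-3.75 ± 0.36 for Krt14), with list means of 8.84 to 10.75 against 7.29 to 9.18. Of the 6 tested epidermal probes 1 was lower (Krt15) and 0 were higher. Adipocyte markers differed the other way: Lep by 0.50 ± 0.14 and Plin1 by 0.39 ± 0.11 among 5 probes. The median gonad difference was -0.34 over 5 muscle, 0.14 over 7 lymphoid and 0.50 over 7 hepatocyte marker probes, with 0 of them called in limma and 0 at an unadjusted p under 0.05. The part of these cell types in the junction differences was not tested.

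Within the arrays without Sry these transcripts varied together. Over the 27 arrays without Sry, with group means removed, Cldn4 correlated with Cldn3 (Pearson r = 0.90, Spearman rho = 0.85), Cdh1 (0.75 and 0.62), Cldn10 (0.70 and 0.68), Cldn23 (0.64 and 0.61), Pkp1 (0.62 and 0.65), Tjp3 (0.52 and 0.48) and Pkp3 (0.49 and 0.42). The permutation p-values, adjusted over these 7 relations, ran from 3.5e-05 to 0.0093 for r and from 7e-05 to 0.032 for rho, where 1e-05 is the smallest unadjusted value that 100000 resamples give. Without the 2 arrays farthest from the median of Cldn4, r ran from 0.38 (Pkp3) to 0.87 (Cldn3), and with slide means also removed from 0.52 to 0.92; slides held too few arrays of this kind for values within a slide. Cldn4 followed the luminal list with r = 0.90 (rho = 0.86) over the 27 arrays without Sry and r = 0.90 (rho = 0.87) over the 28 with it, and Cldn5 followed the endothelial list with r = 0.60 (rho = 0.57) over all 55. These 3 relations were chosen after seeing the data; their permutation p-values were all 1e-05, the smallest they can give, and r without the 2 farthest arrays was 0.87, 0.89 and 0.60, and with slide means removed 0.93, 0.94 and 0.60. Arrays share RNA quality, dissection and labelling, so such relations describe these arrays.

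**Figure D3:**
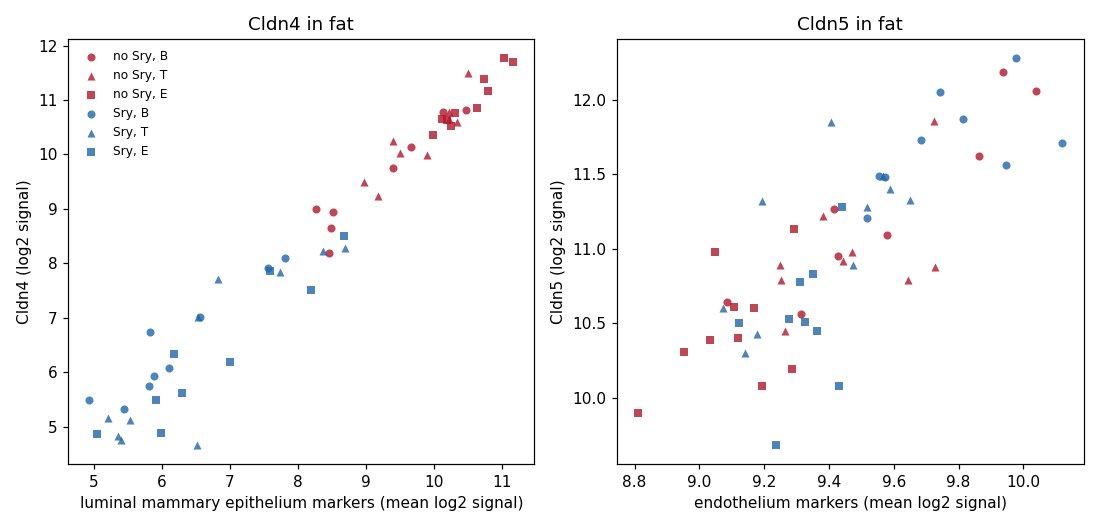
Log2 signal in fat of Cldn4 against the mean of 6 luminal mammary marker probes (left) and of Cldn5 against the mean of 8 endothelial marker probes (right); each symbol is an array, red without Sry and blue with it, circles for B, triangles for T and squares for E. On the left the arrays lie along 1 line with no Sry at the upper end (markers 8.27 to 11.17) and Sry at the lower (4.94 to 8.70).

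Other genes of the junction machinery, listed with earlier results of these data known, were read in the same fit. Of 35 tested probes of 22 such genes in fat, 13 probes of 10 genes were lower with Sry and 0 higher, against the 4.71% lower among all probes, and the median over the list was -0.07. They included Cxadr, the coxsackievirus receptor of the tight junction (-1.20 to -1.96 by 3 probes), Marveld3, a relative of occludin (-1.38 ± 0.11), Lsr, a protein of tricellular junctions (-1.30 ± 0.20), and P-cadherin or Cdh3 (-1.21 ± 0.13). Of 14 tested genes in a list of epithelial regulators, 9 were lower, among them the transcription factors Grhl2 (-1.83 ± 0.13) and Elf3 (-1.71 ± 0.11 by its more changed probe), the splicing factor Esrp1 (-1.86 ± 0.12), and the surface proteases St14 and Prss8. The 1 gene of that list that was higher, picked out after its value was seen, was Zeb2, a repressor of E-cadherin (0.43 ± 0.11; limma adjusted p = 0.00549), while its other tested probe gave 0.17 ± 0.12 (limma adjusted p = 0.554). Both lists held fat probes detected on as few as 3 arrays. A probe that passed the filter only through arrays without Sry had to differ, and such probes were not counted in these lists. In liver 0 of 32 probes of the junction list were called for gonad type in limma, with 4 at an unadjusted p under 0.05, and of the 7 regulator probes Prss8 alone was called (0.70 ± 0.12 higher). Hormone calls in the junction list are given beside the shares of all probes. In fat testosterone called 3 of its 35 probes, 2 higher and 1 lower, against 4.75% of all tested probes, and estradiol 5, 3 higher and 2 lower, below the background of 20.5%, among them Lsr (0.89 ± 0.25 higher). In liver testosterone called 7 of 32, 5 higher and 2 lower, near the background of 19.1%, with the 3 Cxadr probes 0.46 to 0.59 higher. Estradiol there called 1 of 32, against 6.82% of all tested probes.

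Hormones changed claudins of fat too, and of these Cldn10 and Cldn15 had also been called for gonad type. Estradiol changed 6 of the 32 member probes, 2 higher and 4 lower, while 20.5% of all tested probes were called, so this share is near the background. Cldn11, a claudin of myelin and of the testis, was the member with the largest estradiol difference. It ran from 7.37 (median 9.30) to 10 over 17 blank arrays, from 4.99 (7.60) to 10.20 over 19 testosterone arrays and from 9.85 (11.27) to 12.28 over 19 estradiol arrays. Estradiol arrays thus barely touched the blank range, while testosterone arrays spread from background to the top of it. Estradiol raised Cldn11 by 2.08 ± 0.35 (4.24-fold; limma adjusted p = 1.09e-05), by 2.02 ± 0.50 without Sry and 2.15 ± 0.49 with it. Testosterone lowered it by -1.38 ± 0.35 (2.60-fold; limma adjusted p = 0.0124).

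That testosterone difference was not stable to slide. Slides each lacked at least 1 capsule, and with slide as a fixed block the value was -1.05 with a limma adjusted p of 0.25; on the 2 slides that held both T and B it was -1.91 and 0.36. The estradiol difference of Cldn11 was 2.24 and 2.33 on the 2 slides that held both E and B. In liver the Cldn11 probe was detected on 0 of 60 arrays.

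Cldn15 and Cldn5 went down with estradiol. Cldn15, by its brighter probe, ran from 9.36 (median 10.28) to 11.26 under B and from 8.02 (8.96) to 9.82 under E, and the difference was -1.30 ± 0.15 (2.47-fold; limma adjusted p = 5.18e-09), with -1.14 ± 0.18 by the other tested probe. Under testosterone it ran from 9.30 (10.01) to 10.99, a difference of -0.25 ± 0.15 (limma adjusted p = 0.392). Cldn5, the main claudin of endothelial tight junctions, ran from 10.56 (11.56) to 12.28 under B, from 10.30 (10.92) to 11.86 under T and from 9.69 (10.50) to 11.28 under E. Estradiol lowered it by -1.06 ± 0.15 (2.09-fold; limma adjusted p = 2.40e-07) and testosterone by -0.52 ± 0.15 (1.43-fold; limma adjusted p = 0.0273); the latter gave an adjusted p of up to 0.177 with slide as a block and was also not called without XX B replicate 1 or without XX B replicate 3. F11r fell by 0.59 ± 0.10 on the log2 scale with estradiol (1.5-fold; limma adjusted p = 1.02e-05).

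Endothelial markers moved with Cldn5. Of 8 tested probes, 5 were lower with estradiol (Cdh5 by -1.21 ± 0.14, Tie1 by -0.68 ± 0.12, Esam by -0.62 ± 0.09, Emcn and Pecam1) and 3 with testosterone (Cdh5 by -0.55 ± 0.14, Emcn and Pecam1). The list's mean log2 signal ran from 9.08 to 10.12 under B, from 9.07 to 9.73 under T and from 8.81 to 9.44 under E. Among markers of Schwann cells, which ensheathe the nerve fibres of fat, 1 of 3 Mbp probes (-1.0 ± 0.24) and 1 of 2 Pmp22 probes (-0.41 ± 0.14) were lower with estradiol. Luminal markers were higher with estradiol in 3 of 6 probes (Krt19 by 1.4 ± 0.34), and adipocyte markers lower in 2 of 5 (Lep by -0.47 ± 0.17). Of all probes tested in fat, 20.5% were called with estradiol and 4.75% with testosterone. The median estradiol difference was -1.16 over 5 muscle, -0.20 over 7 lymphoid and -0.09 over 7 hepatocyte marker probes. With testosterone these medians were 0.44, -1.21 and 0.54, and 0 of these probes were called in limma with either hormone. The part of these cell types in the hormone differences was not tested.

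**Figure D4:**
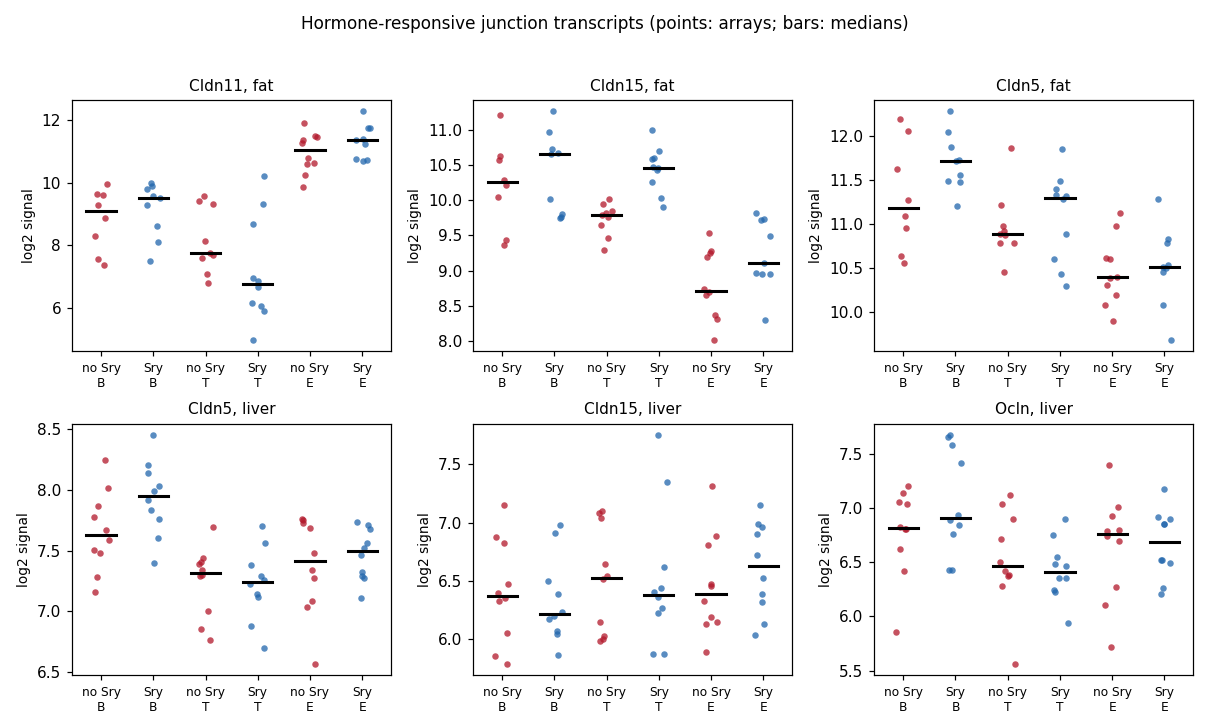
Log2 signal (vertical axes, each panel with its own range) of Cldn11, Cldn15 and Cldn5 in fat and of Cldn5, Cldn15 and Ocln in liver, by gonad type and capsule; each point is an array (red without Sry, blue with Sry) and each bar the median of its group. In fat Cldn11 stands highest under E in both gonad types and Cldn15 and Cldn5 stand lowest there.

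Testosterone called 5 of 32 member probes in fat, against 4.75% of all tested probes: Cldn11 and Cldn5 lower, and the 3 tested probes of Cldn10 higher, by 0.65 ± 0.19 to 0.85 ± 0.14 (limma adjusted p from 0.000108 to 0.0300). Cldn10 thus rose with testosterone while Cldn4 (0.20 ± 0.34), Cldn3 (0.66 ± 0.33) and Cdh1 (0.17 ± 0.17), its companions in the gonad comparison, were not called. With Sry testosterone called 6 member probes (3.55% of all probes) and without Sry 0 (6 at an unadjusted p under 0.05; 0.417% of all probes). Estradiol called 8 with Sry (10.1% of all probes) and 4 without (10.2%). Mice with and without Sry differed in call at Pkp2: its 3 probes were 0.96 to 1.12 higher with testosterone and 0.88 to 1.19 higher with estradiol in mice with Sry, and differed by -0.34 to -0.23 and by -0.46 to -0.04 in mice without. The difference between strata was not called for any Pkp2 probe (limma adjusted p from 0.49 to 1 for testosterone and from 0.111 to 0.210 for estradiol). Cldn4 gave a difference between strata of -1.38 ± 0.67 for estradiol, also not called (limma adjusted p = 0.827). Over both gonad types 1 of the 3 Pkp2 probes was called with estradiol (0.58 ± 0.20; limma adjusted p = 0.0318), and the others gave 0.25 and 0.22.

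Of the 17 member genes tested in liver, 13 were also tested in fat. Cldn3 was bright in every liver array, from 8.89 (median 9.99) to 10.44 without Sry and from 9.33 (10.01) to 10.45 with it. Pkp2, F11r, Dsg2, Cdh1, Cldn5, Cldn15 and Ocln were detected on all or all but 2 of the 60 arrays by their brightest probes. The epithelial members that divided fat by gonad type were mostly at background in liver: Cldn4, Cldn23 and Pkp3 were detected on 0 of 60 arrays and Pkp1 on 1, while 3 Cldn10 probes were detected on 0 and 1 on a single array.

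Gonad type called 0 of the 22 member probes tested in liver in limma, with 0 at an unadjusted p under 0.05, against 3.4% of all tested probes called; with no filter the count was 0 of 56, with 1 at that p, against 1.28% of all probes. Cldn3 differed by 0.05 ± 0.08, Cdh1 by 0.06 ± 0.09 and F11r by -0.01 ± 0.09. Tjp3 gave -0.28 ± 0.15 (limma adjusted p = 0.484) and -0.13 ± 0.14 by its probes, the former negative on all 8 slides (-0.47 to -0.04). The Dsp probe, detected on 27 of 30 liver arrays with Sry and 29 of 30 without, gave -0.04.

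Testosterone called 5 of the 22 liver probes, near the background of 19.1% of all tested probes, and estradiol 3, against 6.82%. Cldn5 was lower with both hormones. It ran from 7.16 (median 7.80) to 8.45 under B, from 6.70 (7.29) to 7.70 under T and from 6.57 (7.47) to 7.76 under E, so that the ranges overlapped. The differences were -0.56 ± 0.10 (1.47-fold; limma adjusted p = 2.08e-05) and -0.37 ± 0.10 (1.30-fold; limma adjusted p = 0.0108), the latter with an adjusted p of 0.108 when slide was a fixed block. Endothelial markers Cdh5 (-0.69 ± 0.13) and Emcn (-0.33 ± 0.10) were lower with testosterone in liver too, 2 of 8 probes, and 0 of 8 were called with estradiol in limma, with 3 at an unadjusted p under 0.05 (list means 6.73 to 7.04 under B, 6.24 to 6.90 under T, 6.14 to 7.07 under E); their part in the Cldn5 difference was not tested.

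E-cadherin rose with testosterone in liver, from a range of 6.55 (median 6.99) to 7.72 under B to 7.02 (7.56) to 8.21 under T, a difference of 0.52 ± 0.11 (1.44-fold; limma adjusted p = 0.000385). Occludin fell by 0.44 ± 0.13 on the log2 scale (1.36-fold; limma adjusted p = 0.0116), from 5.85 (6.87) to 7.67 under B to 5.57 (6.44) to 7.12 under T. For both genes the hormone groups overlapped, and on each of the 3 slides that held T and B the sign was the same. Beside them, the 2 tested probes of the marker list of cholangiocytes, the cells of the bile ducts, had a median testosterone difference of 0.14, and their part was not tested. Dsc2, a desmosomal cadherin, was barely above background, detected on 5 of 20 blank arrays, 0 of 20 testosterone arrays and 1 of 20 estradiol arrays. The probe passed the filter of 5 arrays mainly through the blank arrays, where it was highest, so its hormone calls cannot stand as support for a difference. The fit gave -0.36 ± 0.10 for testosterone and -0.30 ± 0.10 for estradiol (limma adjusted p = 0.00463 and 0.0441), and no fold is given. With no filter the Dsc2 estradiol difference was not called (limma adjusted p = 0.0723). Dsg2 was called in 1 of 3 probes (-0.33 ± 0.10 with testosterone, limma adjusted p = 0.0178; -0.28 by each of the others), and Pkp2 in 1 of 3 (0.41 ± 0.12 with estradiol, limma adjusted p = 0.0186). With slide as a fixed block the brightest Dsg2 probe was called too (-0.35, limma adjusted p = 0.0225), as was F11r (-0.33, limma adjusted p = 0.00421), which gave -0.11 ± 0.11 (limma adjusted p = 0.535) without the block and was negative on each of the 3 slides (-0.34 to -0.15). Without background correction the testosterone differences were 0.30 for Cdh1, -0.34 for Cldn5, -0.21 for Ocln and -0.11 for Dsc2, all still called. The hormone by gonad terms called 0 member probes in liver in limma for testosterone (0 at an unadjusted p under 0.05; 0.124% of all probes) and 0 for estradiol (2 at that p; 0.0795% of all probes).

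Without the liver array XY-Sry T replicate 5 the counts stayed at 0, 5 and 3 for gonad type, testosterone and estradiol, and Cdh1 gave 0.49 with testosterone. Without XY- E replicate 5 they were again 0, 5 and 3, but the estradiol calls were 2 higher and 1 lower in place of 1 higher and 2 lower. Dsc2 with estradiol was no longer called (-0.29, limma adjusted p = 0.0574), while Cldn5 with estradiol stayed called (-0.32, limma adjusted p = 0.0189). A member probe that was not called with this array was called higher without it.

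The difference between the tissues was tested in a fit over the arrays of both tissues with 1 normalisation. For gonad type 11 of 36 member probes differed between fat and liver, 10 more negative in fat and 1 more positive, against 5.65% of all tested probes. The fat minus liver difference was -4.06 ± 0.27 for Cldn4, -3.03 ± 0.24 for Cldn3, -1.86 ± 0.15 for Cdh1, -1.66 ± 0.14 for the brightest Cldn10 probe, -1.39 ± 0.18 for Pkp1, -0.98 ± 0.21 for Pkp3, -0.64 ± 0.11 for Cldn23 and -0.41 ± 0.12 for F11r (limma adjusted p from 1.20e-23 to 0.0154). For Cldn3, Cdh1 and F11r both tissues held measured signal. For Cldn4, Cldn10, Cldn23, Pkp1 and Pkp3 liver was at background, so a liver difference could not have been seen, and the positive value (0.52 ± 0.17) was that of the Cldn15 probe at background in liver. The Cldn23 probe passed the filter only through fat arrays without Sry, so its value cannot stand as support for a difference. With the probes limited to those detected in both tissues, 3 of 18 member probes differed for gonad type (Cldn3, Cdh1 and F11r), against 4.17% of all probes. Tjp3, called in fat and not in liver, was not called for the difference between them (-0.56 and -0.52; limma adjusted p = 0.150 and 0.183).

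For testosterone 4 of 36 member probes differed between the tissues, against 6.17% of all probes, with 0.96 ± 0.18 for Cldn10, -1.38 ± 0.35 for Cldn11 and 0.63 ± 0.18 for Dsc2. Each of these probes was at background in 1 of the tissues, and with probes detected in both tissues limma called 0 of 18 (4 at an unadjusted p under 0.05), against 6.82% of all probes. With slide as a fixed block the Cldn11 value was not called (-0.95; limma adjusted p = 0.206). For estradiol 6 differed, against 11.1% (3 of 18 and 10.2% with probes detected in both tissues): Cldn11 by 2.22 ± 0.35, Cldn15 by -1.55 ± 0.22 and -1.08 ± 0.21 by its 2 probes, Cldn5 by -0.86 ± 0.18, F11r by -0.65 ± 0.14 and Dsc2 by 0.56 ± 0.18. The Dsc2 probe passed the filter mainly through blank liver arrays, so its values for both hormones cannot stand as support for a difference. Cldn15 and F11r were measured in both tissues by their brighter probes and were called with estradiol in fat alone, and these tests compare the tissues directly. Cldn5 fell in both tissues, and its testosterone difference did not differ between them beyond the error (-0.09 ± 0.18, limma adjusted p = 0.852).

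**Figure D5:**
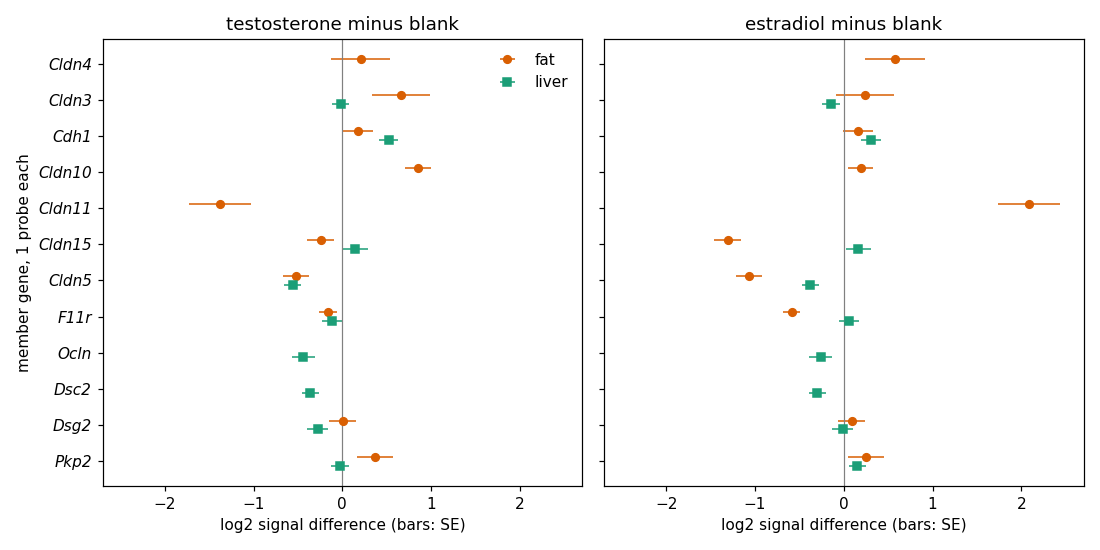
Difference from the blank capsule (horizontal axes, log2 signal) for testosterone (left) and estradiol (right) of 12 member genes in fat (orange circles) and liver (green squares), 1 probe a gene, with bars for the SE of the limma contrast; a missing symbol is a gene not tested in that tissue. Cldn11 in fat lies at -1.38 and 2.08, and Cldn5 lies below 0 in both tissues and with both hormones.

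For promoters of the estradiol-changed claudins the half-site GGTCA of nuclear receptors was searched on both strands, and it is in capitals in the windows of Cldn11 (chr3:31149670-31149969, plus strand) and Cldn15 (chr5:136967619-136967918, plus strand), which changed in opposite directions in fat.
Cldn11: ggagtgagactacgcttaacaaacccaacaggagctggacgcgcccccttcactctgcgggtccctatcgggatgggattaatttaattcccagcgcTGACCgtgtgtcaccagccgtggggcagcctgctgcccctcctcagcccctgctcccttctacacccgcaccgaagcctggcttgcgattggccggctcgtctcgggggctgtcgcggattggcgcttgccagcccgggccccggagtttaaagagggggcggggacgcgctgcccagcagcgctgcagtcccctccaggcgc
Cldn15: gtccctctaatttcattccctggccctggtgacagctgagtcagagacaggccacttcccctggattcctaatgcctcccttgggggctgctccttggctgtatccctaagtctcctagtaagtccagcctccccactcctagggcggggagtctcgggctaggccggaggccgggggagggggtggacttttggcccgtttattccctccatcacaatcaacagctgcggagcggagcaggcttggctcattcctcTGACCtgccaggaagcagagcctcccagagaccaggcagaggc
Each window holds it 1 time, as do 40.5% of all RefSeq windows at least 1 time. The inverted pair GGTCA and TGACC with 3 bases between, the form that estrogen receptors bind best, was in 0 of the 31 member windows and in 0.07% of all windows. Nothing about the receptors follows from these letters.

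Other tested members were called in no comparison of gonad type, hormone or their interaction. In fat Cldn1, Cldn7, Cldn9, Cldn12, Cldn19, Dsc3, Jup and Tjp1 were among them, with gonad differences between -0.31 and 0.09, testosterone differences between -0.24 and 0.25 and estradiol differences between -0.44 and 0.21. In liver Cldn1, Cldn2, Cldn9, Cldn12, Cldn14 and Tjp1 were among them, between -0.20 and 0.17, -0.30 and 0.30, and -0.03 and 0.41. These 8 fat genes had lowest limma adjusted p of 0.0846, 0.388 and 0.0804 for gonad type, testosterone and estradiol. The ubiquitous scaffold protein Tjp1 gave 0.08 ± 0.16 for gonad type in fat, where Tjp3 was called.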

How the data were processed

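Per the file headers, the deposited tables give 2 values per array and probe, an average bead intensity, not log-transformed, and the p-value of its detection. The submitters' processing notes name lumi, but neither background subtraction nor normalisation was seen in the deposited intensity values (lowest 89.1 in liver and 92.6 in fat). The array version and annotation are not given in the sources used here. Columns of bead standard errors, 55 in fat and 60 in liver, were not used. No 2 arrays held identical values.

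Each tissue was processed in limma 3.58.1 (R 4.3.3): normexp background correction with negative controls inferred from the detection p-values, an offset of 16, quantile normalisation and log2. Probes detected (p under 0.01) on at least 5 liver or 3 fat arrays were tested, which left 11317 and 14636. A mean was fitted for each of the 12 groups of a tissue with lmFit and eBayes, contrasts weighted groups equally, and p-values were adjusted by Benjamini-Hochberg over all tested probes. Tissue differences came from 24 group means over the arrays of both tissues; the labels do not tie a fat array to a liver array of the same mouse. Every gene called in a gonad, hormone or interaction contrast is named, by its brightest tested probe, with others where they disagree; values by gonad type and capsule are given for the largest of these differences, and of other lists at most 5 genes with the largest gonad differences in fat. Members and lists were chosen with earlier results of these data known. Marker and junction lists were matched through RefSeq synonyms. Fits were tested on simulated data with known differences. Replicate numbers only name arrays. The number of arrays limits the precision. Alternatives: normalisation, background, offset, filter, slide, array weights, scores of muscle, lymphoid and hepatocyte markers as covariates, the doubtful label, and each array left out. The values of a few tested genes are not reported here, though counts over all members and lists include them.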

Additional observations from a re-analysis of the deposited data

Results flagged for a closer look

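Among the 102 sets of 8 to 10 arrays of 1 tissue, gonad type and capsule looked at for the members named with values, 5 held an array far from the rest, and chance alone gives about 1 in 20 such sets. Tjp3 read 7.62 in fat XY- E replicate 5 (others without Sry under E 5.52 to 6.62). Cldn23 read 5.64 in fat XY-Sry T replicate 3 (others 4.53 to 4.88) and 6.30 in fat XX B replicate 3 (others 4.56 to 5.36). Dsc2 read 4.66 in liver XXSry B replicate 3 (others 5.21 to 5.77) and 5.55 in liver XY-Sry T replicate 1 (others 4.48 to 5.01), both Dsc2 values near background.

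Differences between fat and liver that passed the limma test of the difference itself were, for gonad type, -4.06 for Cldn4, -3.03 for Cldn3, -1.86 for Cdh1, -1.66 for Cldn10, -1.39 for Pkp1, -0.98 for Pkp3, -0.64 for Cldn23 and -0.41 for F11r. For testosterone they were 0.96 for Cldn10, -1.38 for Cldn11 and 0.63 for Dsc2; with slide as a fixed block that of Cldn11 was not called. For estradiol they were 2.22 for Cldn11, -1.55 for Cldn15, -0.86 for Cldn5, 0.56 for Dsc2 and -0.65 for F11r. Dsc2 was at background on every fat array, Cldn4, Cldn11, Cldn23, Pkp3 and the brightest Cldn10 probe on every liver array, and Pkp1 on all but 1. The probes of Cldn23 and Dsc2 passed the filter only or mainly through the group where they were highest. Their values here cannot stand as support for a difference.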

How the results depend on the processing

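Counts of called member probes moved by over 1.5 times in these cases, and the cause was not tested. Fat testosterone (5) gave 3 with arrays centred on their medians, 2 with slide as a fixed block and 3 with slide as a random block. The fat gonad by estradiol terms (0) gave 2 with array weights, and 0 to 1 when 1 array was left out; the fat sex chromosome contrast (0) gave 4 with array weights. With slide as a fixed block liver testosterone (5) gave 9 and liver estradiol (3) gave 1. The fat minus liver counts, with probes limited to those detected in both tissues, were 3 for gonad type (11), 0 for testosterone (4) and 3 for estradiol (6), where fewer probes were tested; testosterone gave 2 with slide as a fixed block and estradiol 3 with median centring. Other counts stayed within 1.5 times: with 1 fat array left out gonad type gave 14 to 17, estradiol 5 to 7 and testosterone 4 to 5, and with marker scores of muscle, lymphoid cells and hepatocytes as covariates 18, 7 and 5 in fat; with 1 liver array left out testosterone gave 5 to 6 and estradiol 2 to 4. Median centring moved the median fat minus liver estradiol difference of all probes to 0.14. Over the named genes, 4892 of 4950 alternative values kept direction and side of the threshold, 20 gained a call and 38 lost it. Most of these alternatives left out 1 array, so these counts say little about the processing settings. No direction of a called difference turned. Sizes of dim probes fell by over 1.5 times without background correction; beside those in the report, Cldn11 with testosterone in fat gave -0.85 and Cldn5 with estradiol in liver -0.23, both still called. By the brightest probe of each gene, calls lost under a setting beyond the left-out arrays were those of Cldn15 (fat gonad), Cldn11 and Cldn5 (fat testosterone), Cldn5 and Dsc2 (liver estradiol). That of Dsc2 was also lost without any 1 of 23 arrays. Calls by other probes were not followed in this way. With no filter fat estradiol called 1 member probe higher in place of 2, and the call of the Pkp2 probe was lost. Every slide lacked a capsule, which limits the hormone differences, and dim probes give bounds or no fold. No paired analysis was possible because replicate numbers only name arrays.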
